A study of Mus musculus with 5 samples.

Results

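The distal ends of the mouse autosomes were examined for H3K9me3, a histone mark of silent chromatin, in CD8+ T cells edited at Prdm12 and in control cells. For each of the 19 autosomes, the largest end coordinate in the deposited table of H3K9me3 regions was taken as the chromosome's distal limit, and every region that started within 2 Mb below it was kept. This gave 810 of the 46409 regions in the table. The rule used position only and no measured value. The innermost region inside the limit lay on chromosome 9, 1998327 bp from the distal limit, with 8, 9, 26 and 5 reads in sgNTC-1, sgNTC-2, sgPrdm12-1 and sgPrdm12-2. The nearest region outside it lay on chromosome 2 at 2004396 bp, with 7, 10, 24 and 14 reads.

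The cells were CD8+ T cells separated with magnetic beads from spleens of OTI:Cas9 transgenic mice, which carry a fixed T cell receptor and the Cas9 nuclease. Cells of both groups received Cas9 protein bound to a synthetic guide by electroporation, with 300 pmol each of guide and Cas9, followed by 72 hours of recovery. The guide was directed at Prdm12 in sgPrdm12 (labelled Prdm12-ko) and was non-targeting in sgNTC (labelled Prdm12-wt). Each group had 2 H3K9me3 CUT&Tag libraries, and the labels place both replicates numbered 1 in batch 1 and both numbered 2 in batch 2. The cells were an edited pool, and neither the editing rate nor the Prdm12 protein level was analysed here. CUT&Tag uses an antibody to direct a transposase to marked chromatin, where it cuts and tags the DNA. The assay does not measure expression, so the cell type could not be checked from its transcripts. Of the CD8 T cell marker genes looked up, 1 region in the whole table lay within 5 kb of one, and B cell and myeloid marker genes had 0.

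H3K9me3 is written by SETDB1 and the SUV39H enzymes and is bound by HP1 proteins, which compact chromatin and keep repeats and many lineage-foreign genes silent. Mouse chromosomes are acrocentric, so the assembled sequence starts near the centromere and its far end borders the long-arm telomere, where H3K9me3 and HP1 are a known part of telomeric chromatin. PRDM12 is a zinc finger protein of the PRDM family, best known for the development of pain-sensing neurons, and it is known to work with H3K9 methyltransferases.

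Most distal H3K9me3 lay away from promoters. Of the distal regions, 64.3% were intergenic, 26.3% overlapped a protein-coding gene and 9.38% another gene, against 63.1%, 27.5% and 9.46% of the autosomal regions outside the distal 2 Mb. Of 692 RefSeq promoters within the distal 2 Mb (GRCm38.p6, 250 bases before to 50 after the gene start), 33 promoters of 28 genes overlapped a distal region. These 33 had a median GC content of 61.0% and a median of 20 CG dinucleotides, against 55.3% and 10 for all promoters in the distal 2 Mb and 52.7% and 7 for all 32851 promoters. The telomere repeat unit TTAGGG, searched on both strands as exact letters, was in 5 of the 33 (15.2%), in 10.5% of the distal promoters and in 10.6% of all promoters. A match is a description of the letters in the window and not of a bound factor. The 4 promoters shown here belong to genes whose H3K9me3 values are given further on, and capitals mark the bases inside the deposited H3K9me3 region. Because it is unknown whether the deposited starts count from 0 or 1, the border of the capitals can be off by 1 base.

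The promoter of Tmem267, which encodes a transmembrane protein, lay at chr13:119488223-119488522 on the + strand, with 241 of its 300 bases inside a region. Its GC content was 76.0%.
Tmem267: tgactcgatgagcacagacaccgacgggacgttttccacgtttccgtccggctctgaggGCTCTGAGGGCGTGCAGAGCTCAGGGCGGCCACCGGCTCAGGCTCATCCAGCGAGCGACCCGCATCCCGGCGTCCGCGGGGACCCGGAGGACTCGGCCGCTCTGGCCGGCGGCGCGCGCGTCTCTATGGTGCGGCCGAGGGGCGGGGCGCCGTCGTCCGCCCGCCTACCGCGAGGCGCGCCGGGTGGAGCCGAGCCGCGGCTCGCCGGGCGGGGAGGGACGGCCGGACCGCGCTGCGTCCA
The promoter of Fgf14, an intracellular fibroblast growth factor homologue that modulates neuronal sodium channels, lay at chr14:124192497-124192796 on the - strand. All of its 300 bases were inside a region, and it held TTAGGG on 1 of its strands.
Fgf14: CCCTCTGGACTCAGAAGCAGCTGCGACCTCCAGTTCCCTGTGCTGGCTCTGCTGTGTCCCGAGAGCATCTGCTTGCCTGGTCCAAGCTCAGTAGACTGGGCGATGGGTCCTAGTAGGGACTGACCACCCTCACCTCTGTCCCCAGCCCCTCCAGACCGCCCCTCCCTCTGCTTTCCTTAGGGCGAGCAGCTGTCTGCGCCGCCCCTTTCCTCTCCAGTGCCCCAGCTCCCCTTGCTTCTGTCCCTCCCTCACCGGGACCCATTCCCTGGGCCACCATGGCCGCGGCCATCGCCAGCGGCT
The promoter of Hmga1b, a copy of the chromatin protein gene Hmga1, lay at chr11:120762544-120762843 on the + strand, with 139 bases inside a region. Reads of such a copy may be shared with Hmga1.
Hmga1b: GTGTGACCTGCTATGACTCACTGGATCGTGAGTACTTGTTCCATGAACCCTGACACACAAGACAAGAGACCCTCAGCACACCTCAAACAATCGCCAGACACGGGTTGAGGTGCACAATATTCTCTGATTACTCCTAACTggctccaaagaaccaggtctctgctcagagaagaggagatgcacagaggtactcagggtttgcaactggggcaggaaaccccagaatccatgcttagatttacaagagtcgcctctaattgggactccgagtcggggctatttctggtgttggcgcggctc
The promoter of Ccr9, the chemokine receptor that directs T cells to the gut, lay at chr9:123766961-123767260 on the + strand, with 190 bases inside a region.
Ccr9: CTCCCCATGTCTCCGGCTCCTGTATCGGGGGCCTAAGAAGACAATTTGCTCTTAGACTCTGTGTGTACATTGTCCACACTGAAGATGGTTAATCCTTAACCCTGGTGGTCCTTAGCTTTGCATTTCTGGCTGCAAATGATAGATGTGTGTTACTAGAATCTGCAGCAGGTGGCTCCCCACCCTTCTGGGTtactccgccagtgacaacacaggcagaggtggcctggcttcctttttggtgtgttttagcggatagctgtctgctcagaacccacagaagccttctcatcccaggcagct

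The region over the Tmem267 promoter held 168, 154, 700 and 523 reads in the order above, with a log2 fold change of sgPrdm12 over sgNTC of 0.42 (edgeR quasi-likelihood test, adjusted p = 0.909). The region over the Fgf14 promoter held 27, 40, 71 and 64 reads (-0.46, adjusted p = 0.961), that over the Hmga1b promoter 19, 19, 177 and 82, and that over the Ccr9 promoter 8, 6, 27 and 11. In each of these 4, the sgPrdm12 libraries held more reads than the sgNTC libraries before scaling, as did the libraries as a whole. The log2 fold changes at the Hmga1b and Ccr9 promoters were 1.17 (adjusted p = 0.227) and -0.18 (adjusted p = 0.999), so none of the 4 passed.

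Depth differed between the groups. Library totals over all regions were 843673 for sgNTC-1, 1060646 for sgNTC-2, 2353807 for sgPrdm12-1 and 1396201 for sgPrdm12-2. The median distal region held 8, 9, 36 and 19 reads, and 19, 12, 0 and 2 distal regions held no read. Most single distal regions in sgNTC therefore rested on few reads. Nothing in the sources used here says that the libraries come from different animals, so the p-values reflect the spread among these 4 libraries alone, which may be technical. Values per library are given below as raw counts or as CPM (reads per 1000000 after edgeR's TMM scaling), which sets the typical region equal between libraries. The median log2 fold change of all tested regions was -0.01 on this scale, 0.56 under total counts and 1.00 under the authors' constants. On these 3 scales the distal median was 0.10, 0.68 and 1.12. Directions of fold changes and CPM values in what follows are relative to the typical region on the TMM scale, unless another scale is named. Shares of counts, and the ratio of distal to centromere-near counts, use raw counts without scaling, so each direction is relative to its denominator.

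The distal ends took a slightly larger part of the autosomal H3K9me3 counts in sgPrdm12 than in sgNTC, and this ordering rested on a few heavily covered regions outside the distal ends. Distal regions held 15438, 18074, 52017 and 32489 reads. These were 1.87% (Wilson 95% interval 1.84 to 1.90) of the autosomal counts in sgNTC-1, 1.74% (1.72 to 1.77) in sgNTC-2, 2.28% (2.26 to 2.30) in sgPrdm12-1 and 2.40% (2.37 to 2.42) in sgPrdm12-2. Both sgPrdm12 libraries lay above both sgNTC libraries, in batch 1 (log2 ratio 0.29) and in batch 2 (0.46). The log2 ratio of the geometric mean shares was 0.37 (two-sided exact permutation test, p = 0.333, the smallest p that 2 libraries against 2 allow). Without the 10 most covered regions of the table, the shares were 3.16%, 3.16%, 2.82% and 3.11%, and the log2 ratio turned to -0.094. With interior and distal regions alone as the denominator the log2 ratio was 0.22, and with the distal 1 Mb or 4 Mb in place of 2 Mb it was 0.28 or 0.53. Without the last region of each chromosome the shares were 1.20%, 1.11%, 1.72% and 1.68%, a log2 ratio of 0.56. In a bulk library, fewer cells that carry the mark and less mark per cell cannot be told apart. The intervals cover counting error only.

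The centromere-near ends took a smaller part of the counts in sgPrdm12. The first 1 Mb of assembled sequence of the autosomes, with 356 regions, held 20.7%, 22.1%, 11.5% and 13.5% of the autosomal counts. Counts in the distal 2 Mb were 0.0906, 0.0789, 0.198 and 0.178 times those in the first 1 Mb. Both sgPrdm12 ratios lay above both sgNTC ratios, with a log2 difference of 1.15 (1.13 in batch 1 and 1.17 in batch 2; exact permutation p = 0.333, the smallest possible). Without the 10 most covered regions the log2 difference was 0.66. Over tested regions, the median log2 fold change was 0.10 in the distal 2 Mb (quartiles -0.35 and 0.56), -0.31 in the first 1 Mb and -0.01 over all regions.

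For single distal regions, edgeR's quasi-likelihood test was fitted on the whole table. Of the 810 distal regions, 710 had enough reads to be tested, and the other 100 did not pass the filter. In sgPrdm12, 11 were lower at a Benjamini-Hochberg adjusted p under 0.05 (1.55%), where 0.377% of all tested regions were lower. The 0 higher distal regions compare with 0.11% higher over all tested regions. Before adjustment, 45 distal regions were higher (6.34%, against 3.34% of all tested regions) and 26 lower (3.66%, against 3.08%) at p under 0.05. DESeq2's Wald test called 0 distal regions higher and 11 lower, against 0.0294% and 0.342% of all tested regions. For limma-voom the counts were 0 and 9, against 0.00267% and 0.297%. On the scale of the authors' constants, where the typical region is itself higher in sgPrdm12, 206 distal regions were higher and 3 lower, against 20.8% and 0.139% of all tested regions. With total counts 35 were higher and 4 lower, against 2.5% and 0.211%. With DESeq2 size factors or without the 10 most covered regions of the table, 6 were lower, against 0.257% and 0.217%. The log2 fold change lay above 0 in 403 of the 710. The groups did not overlap on the CPM scale in 184 distal regions with sgPrdm12 above and in 104 with sgPrdm12 below, 25.9% and 14.6% of those tested, against 20.2% and 16.4% of all tested regions. Thus the typical distal region lay slightly above the median region in sgPrdm12, while every distal call in the edgeR fit on the TMM scale was lower. Lower calls also outnumbered higher ones over all tested regions, 141 against 41. The 0 higher calls among 710 distal regions lie near the 0.11% of all tested regions.

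Coverage and calls went together. Of the distal regions with a mean of at least 100 reads, 5 of 26 were lower (19.2%), close to the 22.3% lower among all regions of that coverage. Of those with fewer reads, 6 of 684 were lower (0.877%), against 0.202% of all such regions. The median log2 fold change of the heavily covered distal regions was -0.13, against -0.37 for all heavily covered regions.

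**Figure D1:**
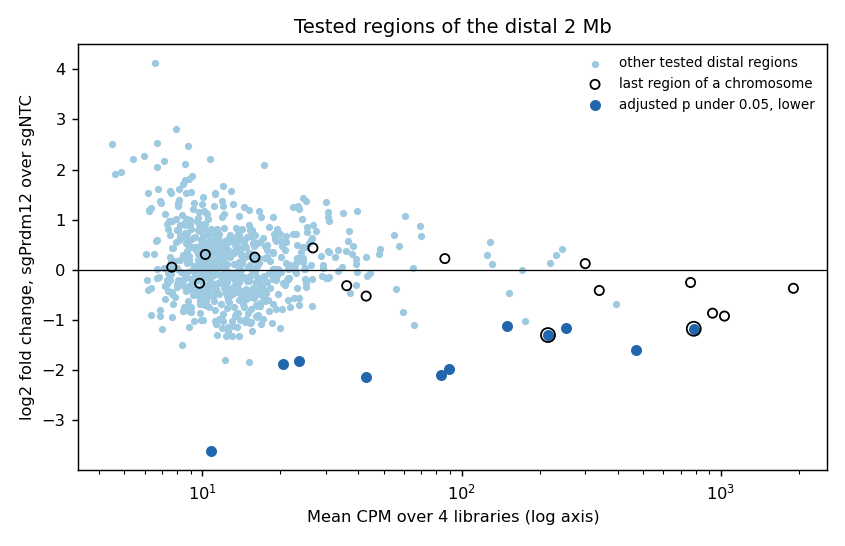
The log2 fold change of sgPrdm12 over sgNTC (y axis) against the mean CPM over the 4 libraries (x axis, log scale) for the 710 tested distal regions, with the 11 lower ones marked. The regions with few reads spread on both sides of 0, and 5 of the 11 lower regions had a mean of at least 100 reads.

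Of the 11 lower regions, 3 were neighbours on chromosome 9, with no annotated gene within 5 kb, at chr9:124256372-124256865, chr9:124257039-124257294 and chr9:124257422-124257852. In that order they held 104, 119, 100 and 64 reads, 54, 54, 41 and 30 reads, and 102, 108, 82 and 59 reads. At all 3, the sgNTC libraries held more reads than the deeper sgPrdm12 libraries even before scaling. In CPM the region that starts at 124257422 was 135 ± 7.25 (SD, n = 2) in sgNTC and 31.9 ± 6.24 in sgPrdm12. The log2 fold changes were -1.98 (SE 0.32, adjusted p = 1.28e-05), -2.13 (SE 0.37, adjusted p = 7.98e-05) and -2.09 (SE 0.32, adjusted p = 5.72e-06) in the edgeR test. Within batch 1 they were -2.09, -2.43 and -2.35, and within batch 2 -1.86, -1.81 and -1.83. These neighbours may share fragments and are not separate observations of the locus. They were also lower on the scale of the authors' constants. Without sgNTC-1 none of the 3 passed, and without sgNTC-2 only the latter 2 passed (adjusted p = 0.0362 and 0.044).

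The tested regions beyond these 3 all had log2 fold changes above 0. The 3 lower regions opened a run of 16 regions that spanned the last 238.4 kb of chromosome 9 with gaps of at most 50 kb. Of the 15 tested regions in this run, the 3 lower ones included, 12 had a log2 fold change above 0, and the median was 0.37. The run passes over Ppp2r3d, which encodes a regulatory subunit of protein phosphatase 2A, and several unnamed gene models.

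On chromosome 2, a pair of regions overlapped the long noncoding RNA gene Gm40034, 94.7 and 95.8 kb from the distal limit. The region at chr2:181917418-181918103 held 464, 649, 688 and 387 reads, that is, 709 ± 101 CPM in sgNTC and 234 ± 5.42 CPM in sgPrdm12 (SD, n = 2). The log2 fold change of this region, -1.60 (SE 0.26, edgeR adjusted p = 2.11e-05), was -1.47 within batch 1 and -1.71 within batch 2. The region beside it, at chr2:181918494-181919082, held 151, 168, 269 and 163 reads and had a log2 fold change of -1.11 (SE 0.29, edgeR adjusted p = 0.0485). It was the smallest change among the 11 lower regions. Neither passed when 1 of the sgNTC libraries was left out.

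The last region of 2 chromosomes was lower. On chromosome 14 the last region, at chr14:124801548-124802153, held 783, 917, 1457 and 778 reads. In CPM this was 1089 ± 19.2 in sgNTC and 483 ± 6.59 in sgPrdm12 (SD, n = 2), a log2 fold change of -1.17 (SE 0.25, edgeR adjusted p = 0.0036). On chromosome 13 the last region, at chr13:120321235-120321595, lay 2974 bp from Tcstv3, a gene known from the early embryo, and held 207, 274, 505 and 128 reads. It reached 307 ± 31.9 CPM in sgNTC and 124 ± 63.9 CPM in sgPrdm12, a log2 fold change of -1.30 (SE 0.29, edgeR adjusted p = 0.00873). The batches differed at this region, with -0.75 in batch 1 and -2.06 in batch 2. Its log2 fold change with sgPrdm12-1 left out was -2.02. On chromosome 1, a region 130.3 kb from the distal limit, at chr1:195241567-195241893, held 258, 288, 424 and 279 reads and had a log2 fold change of -1.16 (SE 0.27, edgeR adjusted p = 0.0165). None of these 3 passed without sgNTC-1 or without sgNTC-2.

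The other 3 lower regions had few reads and lay in genes. In Lrrc7, which encodes a scaffold protein of the postsynaptic density, the region at chr3:158115328-158115666 held 12, 20, 8 and 0 reads (log2 fold change -3.60, SE 0.83, edgeR adjusted p = 0.0124). With sgPrdm12-1 left out, sgPrdm12 held no read there, and the fitted value of -7.47 depends on the prior count. The region at chr3:158118519-158118850, also in Lrrc7, held 25, 26, 40 and 5 reads (-1.87, SE 0.49, edgeR adjusted p = 0.0472), and without sgPrdm12-1 it was at -3.42. The other 16 distal regions of Lrrc7 did not pass, and the median over its 18 was 0.08. In Dnah11, which encodes a dynein heavy chain of motile cilia, the region at chr12:118119662-118119991 held 21, 37, 31 and 17 reads (-1.82, SE 0.44, edgeR adjusted p = 0.0238). DESeq2's Wald test gave no adjusted p for these 3 regions, and limma-voom called none of them.

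All 11 lower regions had both sgPrdm12 libraries below both sgNTC libraries in CPM and a log2 fold change below 0 in each batch. Of the 11, 8 lay in the last 250 kb of their chromosome, a bin with 142 of the 710 tested distal regions. These 8 include the 3 neighbours on chromosome 9 and the pair at Gm40034. A gene was overlapped by 5 of the 11. Of all distal regions, 26.3% overlapped a protein-coding gene and 9.38% another gene. Across 13 fits, the chromosome 9 regions were called in 11, 12 and 12, the larger Gm40034 region in 10, the last region of chromosome 14 in 9 and the Dnah11 region in 3. With sgNTC-1 left out, 0 of the 11 were called (0.063% of all tested regions were lower), and their log2 fold changes ran from -3.98 to -1.15. With sgNTC-2 left out, 2 of them were called (0.0826%). With sgPrdm12-1 or sgPrdm12-2 left out, 10 and 9 of them were called (0.591% and 0.43%). With the replicate number as a block, 14 distal regions were lower (0.455% of all tested regions), namely the same 11, the last regions of chromosome 2 (adjusted p = 0.00245) and chromosome 10 (adjusted p = 0.00968), and chr19:61266500-61267154 (adjusted p = 0.0305).

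**Figure D2:**
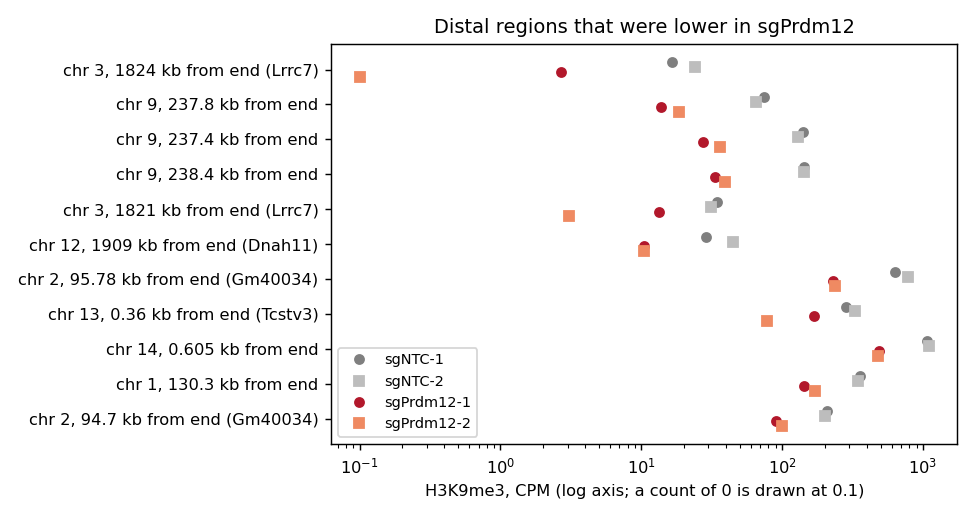
CPM on the TMM scale (x axis, log scale) in each of the 4 libraries for the 11 lower distal regions (y axis). At each region both sgPrdm12 points lie to the left of both sgNTC points. The last region of chromosome 13 has the 2 sgPrdm12 points farthest apart among the regions with a mean of at least 100 reads.

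The last region of each chromosome carried much of the distal signal. These 19 regions, 2.35% of the distal regions, held 36.1%, 36.9%, 25.0% and 30.3% of the distal counts. Of the 16 that were tested, 10 had a log2 fold change below 0 and 6 above, with a median of -0.29. The 2 described above were called lower, both among the 9 last regions with a mean of at least 100 reads. Of all tested regions of that coverage, 22.3% were lower. The last region of chromosome 12 was the most covered distal region, with 1554, 1792, 3686 and 3412 reads. In CPM this was 2145 ± 14.3 in sgNTC and 1666 ± 611 in sgPrdm12 (SD, n = 2), a difference smaller than the spread within sgPrdm12 (log2 fold change -0.37, edgeR adjusted p = 0.902). It was -0.88 and passed without sgPrdm12-2 (adjusted p = 0.000243), and was -0.092 without sgPrdm12-1. The last region of chromosome 2 held 956, 1156, 2416 and 1008 reads (-0.92, SE 0.24, edgeR adjusted p = 0.0531). That of chromosome 10, beside the ferritin pseudogene Ftl1-ps2, held 843, 1030, 1810 and 1161 reads (-0.86, SE 0.24, edgeR adjusted p = 0.101). Both missed the threshold in this fit. They passed it with the replicate block, with DESeq2's Wald test (adjusted p = 0.000164 and 0.000516), with limma-voom (0.0319 at each) and without either sgPrdm12 library, but not without either sgNTC library.

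The sgPrdm12 libraries went opposite ways at the end of chromosome 16. Its last region held 616, 676, 987 and 1737 reads, with a log2 fold change of -1.36 in batch 1 and 0.39 in batch 2 (-0.25 in the fit over all libraries). Without sgPrdm12-2 it passed at -1.41 (edgeR adjusted p = 4.74e-08), and without sgPrdm12-1 it was at 0.31. The last region of chromosome 3, 737 bp from Wls, which encodes a carrier for Wnt secretion, held 265, 341, 630 and 608 reads (-0.41), and passed without sgPrdm12-2 at -0.96 (edgeR adjusted p = 0.0206). That of chromosome 4, beside the vomeronasal receptor gene Vmn2r125, held 192, 257, 790 and 589 reads (0.13). The last regions of chromosomes 5, 8 and 19 had at most 21 reads in any library and were not tested.

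**Figure D3:**
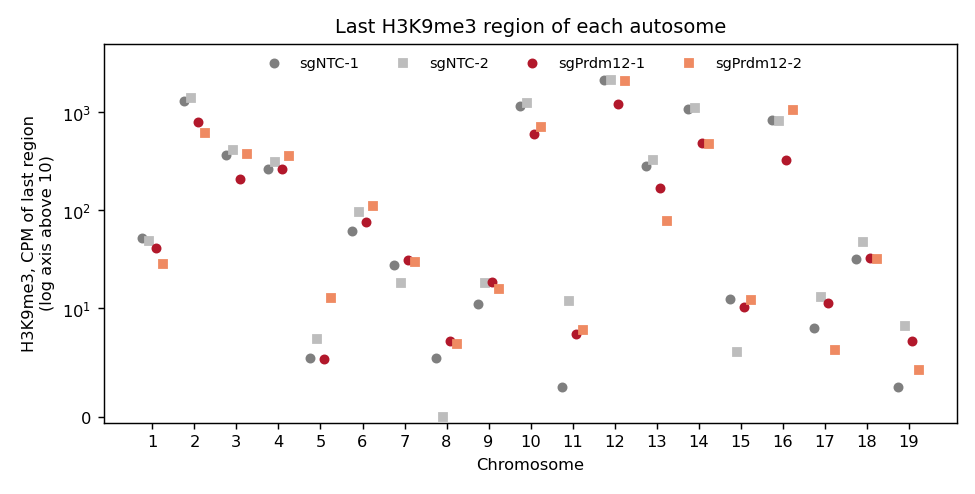
CPM on the TMM scale (y axis, log scale) of the last region of each of the 19 autosomes (x axis) in the 4 libraries. The last regions of chromosomes 12, 2, 10, 14 and 16 are far above those of chromosomes 5, 8 and 19, and the sgPrdm12 points of chromosome 16 lie on either side of the sgNTC points.

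When counts were summed by distance from the distal limit, the outermost bin had the lowest log2 ratio. Regions in the last 250 kb, 163 in number, reached 11530 and 12070 CPM in sgNTC and 7381 and 9320 CPM in sgPrdm12, a log2 ratio of -0.50 (-0.64 in batch 1 and -0.37 in batch 2). This bin held 54.3%, 55.5%, 42.4% and 46.7% of the distal counts. Without the last region of each chromosome its log2 ratio was -0.33. Its median region nevertheless had a log2 fold change of 0.24, so the sum followed its few heavily covered regions and the median its many thin ones. The 6 bins from 250 to 1750 kb had log2 ratios of 0.04 to 0.18, with 0 regions called in either direction. Of these, the bin from 500 to 750 kb was at -0.046 in batch 1 and turned to -0.038 without sgPrdm12-2. The innermost bin, 1750 to 2000 kb, had a log2 ratio of -0.20 and held the other 3 lower regions. These bins are a description, and no test was made between them.

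**Figure D4:**
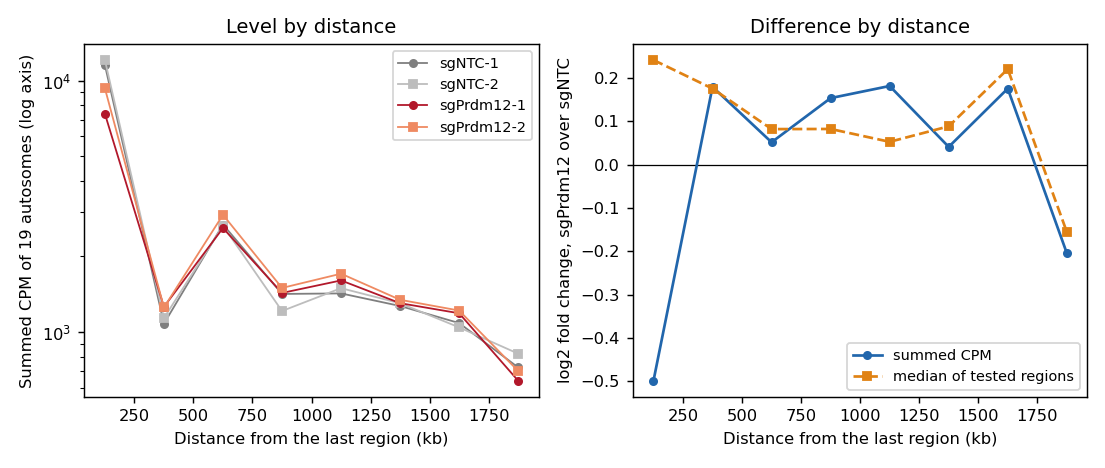
Left, summed CPM over the autosomes (y axis, log scale) in each library, in 8 bins of 250 kb by distance from the distal limit (x axis). Right, log2 ratio of summed CPM, sgPrdm12 over sgNTC, and median log2 fold change of the tested regions (y axis) in the same bins. By summed CPM, the bin at the limit is at -0.50, the next 6 bins lie between 0.04 and 0.18, and the innermost bin is at -0.20.

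Summing all reads in the 2 Mb at the end of a chromosome gave each chromosome 1 better covered value, tested among 1209 consecutive 2 Mb windows of the autosomes. The distal window was lower in sgPrdm12 on 4 chromosomes (5.29% of all windows were lower) and higher on 1 (5.05% of all windows were higher). On the total-count scale 1 was lower and 15 higher, against 1.74% and 87.6% of all windows, and under the authors' constants 0 and 18, against 0.827% and 97.4%. Of these, the distal window of chromosome 2 had the largest log2 fold change. It held 1819, 2240, 4379 and 2139 reads, or 2595, 2744, 1501 and 1351 CPM, so the groups were well separated. The window's log2 fold change, -0.90 (SE 0.13, edgeR adjusted p = 5.34e-10), was -0.79 within batch 1 and -1.02 within batch 2. Its last region made up 52.6%, 51.6%, 55.2% and 47.1% of these counts.

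The distal window of chromosome 14 held 1347, 1512, 3883 and 2136 reads (log2 fold change -0.49, SE 0.12, edgeR adjusted p = 0.00116), and its last region made up 58.1%, 60.6%, 37.5% and 36.4%. The call was lost without sgNTC-1 (adjusted p = 0.0869). Chromosome 19 held 268, 338, 791 and 490 reads (-0.46, SE 0.12, edgeR adjusted p = 0.00353), of which the region at chr19:61266500-61267154 held 167, 198, 290 and 221. It did not pass without sgNTC-2 (adjusted p = 0.123) or without sgPrdm12-1 (adjusted p = 0.104). Chromosome 10 held 1598, 1868, 4922 and 2909 reads (-0.37, SE 0.13, edgeR adjusted p = 0.043). It did not pass with the replicate block (adjusted p = 0.0532), nor without sgNTC-1 (0.307), sgNTC-2 (0.338) or sgPrdm12-1 (0.129).

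The higher window was that of chromosome 11, with 289, 332, 1454 and 857 reads, or 412, 407, 498.5 and 541 CPM. The window's log2 fold change, 0.34 (SE 0.11, edgeR adjusted p = 0.0198), was 0.27 within batch 1 and 0.41 within batch 2. The call was lost without sgNTC-1 (adjusted p = 0.086), sgNTC-2 (0.122) or sgPrdm12-2 (0.199). The remaining 14 windows ranged from -0.26 on chromosome 12 to 0.21 on chromosome 6 and did not pass.

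Set against the rest of its own chromosome, the order changed for some windows. The distal window of chromosome 9 held 0.44%, 0.40%, 1.05% and 0.95% of that chromosome's counts (log2 ratio 1.24), while its level in CPM was 1024, 1079, 959 and 1042. Chromosome 2 held 0.89%, 0.79%, 1.30% and 0.96% (log2 ratio 0.43), although its window was lower in CPM. Without the 10 most covered regions of the table, the log2 ratio turned to -0.91 on chromosome 2 and was 0.60 on chromosome 9. Chromosome 11 held 0.79%, 0.81%, 1.27% and 1.28% (0.67), and chromosomes 10 and 19 had log2 ratios of -0.47 and -0.46. In all, the share was higher in both sgPrdm12 libraries than in both sgNTC libraries on 8 chromosomes and lower on 4. Over all 1209 windows the share of the chromosome was higher without overlap in 47.3% and lower in 17.1%, so the 8 lie near this background. These shares also depend on the rest of each chromosome, where 59 of the 256 tested autosomal regions with a mean of at least 100 reads were lower in sgPrdm12 and 2 were higher.

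Among tested distal regions with a mean of at least 20 reads and no overlap between the groups, the 6 highest log2 fold changes did not pass the test. At chr11:121316311-121316743, in intergenic sequence, the libraries held 3, 7, 51 and 64 reads (log2 fold change 2.10, SE 0.57, edgeR adjusted p = 0.0778), and without sgPrdm12-1 this region passed at 2.54 (adjusted p = 0.00946). An intergenic region 1096 kb from the end of chromosome 1 held 0, 6, 53 and 29 reads (2.21, edgeR adjusted p = 0.263). A region in B230307C23Rik on chromosome 16 held 5, 5, 48 and 37 reads (1.57). The other 3 of these 6 had log2 fold changes of 1.67, 1.53 and 1.52. The 6 tested regions of B230307C23Rik ranged from 0.10 to 1.57 with a median of 1.02, and held 27, 42, 252 and 134 reads in sum. This gene model lies in the last 110.7 kb of chromosome 16, where the last region itself went opposite ways in the sgPrdm12 libraries.

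Genes of the distal ends were counted by group, with every region within 5 kb of a gene. Of 12 zinc finger genes annotated there, 6 had a region, and of their 9 tested regions 0 passed in either direction, with a median log2 fold change of 0.34. A region in Zfp445, which encodes a KRAB zinc finger protein that protects imprints, held 7, 3, 37 and 36 reads (1.38, edgeR adjusted p = 0.724). Another region in Zfp445, also within 5 kb of the zinc finger gene Zkscan7, held 2, 9, 36 and 27 reads (1.02, edgeR adjusted p = 0.911).

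Chemoreceptor genes, which encode the odorant and pheromone receptors, made up the largest group. Of 84 annotated in the distal 2 Mb, 38 had a region, and of their 45 tested regions 0 passed, with a median of 0.05. The region near the pseudogene Olfr783-ps1 held 16, 4, 92 and 52 reads (1.26, edgeR adjusted p = 0.43), and a region near Olfr771, an odorant receptor gene, held 15, 12, 21 and 13 reads (-1.22, edgeR adjusted p = 0.785). Over odorant receptor genes of chromosome 10, a run of 46 regions over 549.6 kb had 589.5, 607, 650 and 697 CPM in sum. The median over its 41 tested regions was 0.11. A smaller run over such genes on chromosome 10, with 20 regions over 381.9 kb, had 280, 236, 255 and 231 CPM. Its median over 18 tested regions was -0.07. For comparison, a run of 49 regions over 577.4 kb on chromosome 18, with no chemoreceptor gene, gave 611, 548.5, 651 and 596 CPM. Its median over 44 tested regions was 0.12. The groups overlapped in the smaller chromosome 10 run and in the chromosome 18 run. In each of these runs the differences were small beside those of the heavily covered regions.

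Immune genes had few regions. Of 18 annotated in the distal 2 Mb, 5 had a region, and 0 of their 7 tested regions passed, with a median of 0.21. Xcr1 encodes the receptor for the chemokine XCL1 on cross-presenting dendritic cells. The region within 5 kb of it lies inside a promoter of Fyco1, a gene for a transport adaptor of autophagosomes. It held 15, 23, 30 and 4 reads (-1.83, edgeR adjusted p = 0.18), and without sgPrdm12-1 it passed at -3.30 (adjusted p = 0.0115). The region in Ccr9 held 18, 11, 116 and 74 reads (1.16, edgeR adjusted p = 0.342). The region at Ccr2, the receptor that draws monocytes to inflamed tissue, held 0, 3, 22 and 12 reads. The regions at Csf2ra, a subunit of the GM-CSF receptor, and at Tnfrsf14, the receptor HVEM, did not pass either.

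Of 4 neural genes only Shank2, which encodes a postsynaptic scaffold, had regions, and 0 of 5 tested passed (median -0.05). The pair with the smallest p held 23, 9, 76 and 53 reads (0.46, edgeR adjusted p = 0.989) and 8, 11, 60 and 20 reads (0.44, edgeR adjusted p = 0.994). Of the telomere and heterochromatin genes, 2 are annotated in the distal 2 Mb and neither had a region. For all 4 groups with regions, the number of reads per region in sgNTC limits what could be seen.

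Several long genes carried many thin regions. Fgf14 had 19 regions (16 tested, median 0.13), and Nalcn, which encodes a sodium leak channel, had 15 (all tested, median 0.11). Itgbl1, an integrin-like gene beside them on chromosome 14, had 15 regions, with a median of 0.21 over 13 tested. None of the regions of these 3 genes passed. Over the 10 regions of Tmem267, reads summed to 1049, 1140, 3742 and 2767, with log2 fold changes from -0.69 to 0.69 and a median of 0.36. Its most covered region, chr13:119598931-119599161, was the one at -0.69, with 372, 386, 743 and 582 reads (edgeR adjusted p = 0.444), and it passed without sgPrdm12-2 at -1.05 (adjusted p = 0.00224).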

How the data were processed

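H3K9me3 CUT&Tag was measured in 2 sgNTC and 2 sgPrdm12 libraries, and the IgG library was not analysed here. The authors deposited a raw read count per region and library, used for every value, and a normalized signal per region, which is the count times 1 constant per library of unstated derivation. Tools named by the submitters' processing notes are Trimmomatic, Bowtie2, MACS2, DiffBind, and the build GRCm39. Coordinates were read as GRCm38, because the last regions of several chromosomes lie past the GRCm39 ends, by chromosome lengths that were recalled rather than supplied. Region calling and merging are not given in the sources used here.

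Regions, and counts summed in 2 Mb windows, were tested with edgeR 4.0.16 (limma 3.58.1, R 4.3.3). Settings were quasi-likelihood, TMM, filterByExpr, two-sided, Benjamini-Hochberg adjustment over the whole table and a threshold of 0.05. In simulated data, changes were placed in regions or windows drawn at random, and the regions drawn this way are mostly thin. There the region test recovered 0% of log2 changes of 1 and 26.5% of log2 changes of 2, with 0 false calls. Rates for heavily covered regions were not measured apart. The window test recovered 100% at both sizes, with 4 false calls. Shares were compared by exact permutation over libraries. Library totals were 843673 to 2353807 reads. Regions were joined to RefSeq GRCm38.p6 genes, overlapping or within 5 kb, and promoters are RefSeq's. The members and lists were chosen with earlier results of these data known. Named were up to 10 called regions per direction, the 8 most covered, the 6 highest and 6 lowest without overlap between groups at a mean of at least 20 counts, the 2 of smallest p per list, and called windows; the 11th call and regions of the genes with many regions or a promoter shown were added after their values were seen. Labels tie the replicate number to the batch, which pairs the libraries, although replicate differences correlated at 0.00254 over 37390 regions and -0.0375 over 710 distal ones. Alternatives were other scalings, filters, window sizes, DESeq2 1.42.0, limma-voom, a replicate block and each library left out.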

Additional observations from a re-analysis of the deposited data

How the results depend on the processing

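Depth and scale limit these results: sgNTC held a median of 8 and 9 reads per distal region, and each library left out leaves 1 group with a lone library assumed to vary like the other group. Percentages in brackets are the share of all tested regions or windows called in the same direction in that fit. The replicate block gave 14 lower regions (0.455%) and 3 lower windows (5.05%). With the block, the log2 share ratio was 0.37 and the end-to-end log2 ratio 1.15. The block changed no other call than those given above. Higher regions numbered 206 with the authors' constants, 35 with total counts, 1 at a threshold of 0.1, 2 in the distal 4 Mb and 0 to 1 with a library left out. Lower regions numbered 3 with the authors' constants, 4 with total counts, 6 with DESeq2 size factors, 6 without the 10 most covered regions of the table and 0 to 17 with a library left out. Higher windows numbered 18, 15, 2 (threshold 0.1), 0 (1 Mb), 0 (4 Mb) and 0 to 2, and lower windows 0, 1 and 2 to 6, for the authors' constants, total counts, the settings named and a library left out. Without the 10 most covered regions, chromosomes with a higher share numbered 5 and those with a lower share 6. No background over all windows is given for this setting. The log2 share ratio was 0.32 to 0.43 and the end-to-end ratio 1.05 to 1.25 with a library left out, and the share ratio turned to -0.094 without the 10 most covered regions. The authors' constants turned the last regions of chromosomes 12, 2, 10, 16 and 3 to 0.64, 0.10, 0.15, 0.75 and 0.60, the Tmem267 region to 0.32 and the windows of chromosomes 2, 14, 19 and 10 to 0.12, 0.53, 0.56 and 0.64. Total counts turned the last regions of chromosomes 12, 16 and 3 to 0.18, 0.28 and 0.14 and the windows of chromosomes 14, 19 and 10 to 0.087, 0.12 and 0.20. With a library left out, the last region of chromosome 16 ran from -1.41 to 0.31 (without sgPrdm12-1) and the 2 Shank2 regions from -0.041 (without sgPrdm12-1) and -0.22 (without sgNTC-2) up to 0.64 and 1.35; the cause was not tested. Leaving out the 10 most covered regions in the region fit, the last region of each chromosome, and the settings for the ends and bins were chosen after seeing the data.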

Other observations

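The X chromosome, which the autosomal rule leaves out, had 26 regions in its last 2 Mb, 23 of them tested. They held 1604, 1833, 4331 and 2258 reads in sgNTC-1, sgNTC-2, sgPrdm12-1 and sgPrdm12-2, that is, 2204, 2205, 1449 and 1388 CPM. The sgPrdm12 libraries lay below the sgNTC libraries, and the median log2 fold change of the tested regions was -0.34. Of them, 1 was lower and 0 higher in edgeR's quasi-likelihood test at an adjusted p under 0.05. Over all tested regions, 0.377% were lower and 0.11% higher. The last region of X held 666, 808, 1668 and 810 reads (log2 fold change -0.84, edgeR adjusted p = 0.137).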
